A study of Mus musculus with 10 samples.

Results

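The genes described here are 58 genes of DNA replication and mitosis, chosen by name: 28 that act around the G1 to S transition (Mcm2 to Hells) and 30 that act in G2 and M phase (Mki67 to Prc1). A gene was represented by the probe set that carries its symbol and no other, and by the brightest such probe set where there were several. A named probe set was found for 57 of the 58, all 28 G1/S genes and 29 G2/M genes, out of 12670 genes tested in all. Ccnb1, which encodes cyclin B1, had no probe set named for it and was not analysed here. All 57 lay above the filter on dim probe sets, a mean log2 intensity of 6.35.

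The samples were 10 primary mediastinal T cell lymphomas that arose spontaneously within 4 to 5 months of age, each hybridised to 1 microarray. Every mouse carried the NPM-ALK transgene, a fusion kinase found in anaplastic large cell lymphoma, on a C57BL/6 background. WASP, an activator of branched actin assembly in blood cells, was intact in 5 mice (labelled WT) and missing in 5 (labelled WASP -/-, females without a working copy or males without their single X-linked copy). The sources used here do not name the promoter that drives the transgene or the sex of each animal. In these bulk samples, fewer cycling cells and less RNA per cycling cell cannot be told apart.

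A cell that divides first loads the MCM helicase onto replication origins in G1, fires those origins in S phase under cyclin E and cyclin A kinases, and then separates its copied chromosomes in mitosis under cyclin B, Polo-like and Aurora kinases. The genes for the first step are switched on largely by E2F factors once the retinoblastoma proteins are inactivated. The genes for the last step are switched on later, by the MuvB complex with B-Myb and FoxM1, through an element called the cell cycle genes homology region (CHR), and often through CCAAT boxes bound by NF-Y. Transcript levels of both groups are widely read as a measure of how many cells of a tumour are cycling.

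The 2 groups differed in their promoters. The genes were chosen by name and not by sequence. Because genes of these steps are known for E2F or CHR control, the difference is not independent of that choice. Promoters from 250 bases before to 50 bases after the annotated start were taken from RefSeq (GRCm38.p6), 1 per gene, and were present for 49 of the 58 genes. The genes without an entry were Mcm4, Gins1, Gins2, Tipin, Ccne2, Ccna2, Aurkb, Kif20a and Tpx2. The motifs searched, on both strands, were TTTGGCGC, TTTCGCGC, TTTCCCGC and TTCCCGCC for E2F (the last pair can overlap, so promoters rather than matches were counted), TTTGAA for the CHR and CCAAT for NF-Y. An E2F-type motif was found in 13 of 23 G1/S promoters (56.5%) and in 1 of 26 G2/M promoters (3.85%), that of Cdk1, against 3.57% of all 27025 promoters. The CHR-type motif went the other way, with 21 of 26 G2/M promoters (80.8%) and 3 of 23 G1/S promoters (13.0%), against 18.1% of all. CCAAT was found in 21 of 26 G2/M promoters (80.8%) and in 14 of 23 G1/S promoters (60.9%), against 37.9% of all, and 18 G2/M promoters held both CHR and CCAAT (69.2%, against 7.12% of all). These matches are descriptions of the sequence and do not show that a factor binds there.

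**Figure D1:**
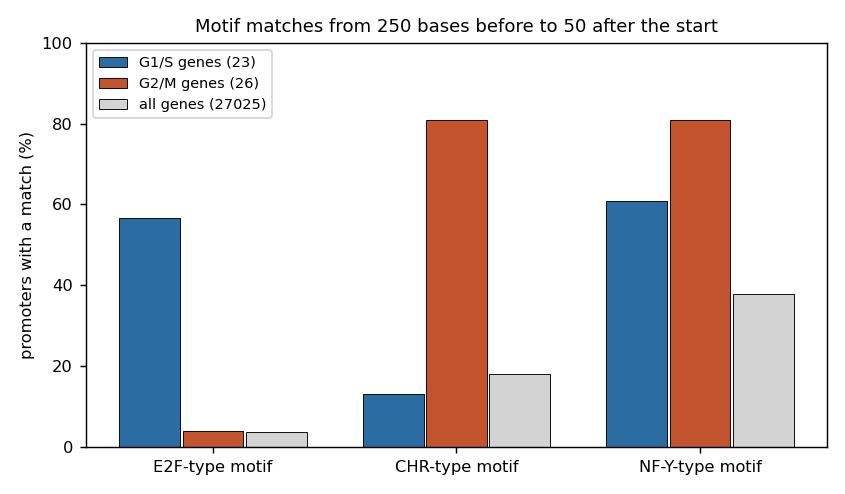
Share of promoters (%) with at least 1 match to each kind of motif, for G1/S genes (23 promoters), G2/M genes (26 promoters) and all genes (27025 promoters). E2F-type matches stand at 56.5% in the G1/S genes and CHR-type matches at 80.8% in the G2/M genes.

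The 150 bases before the start are shown for 4 genes of each group, with E2F-type, CHR-type and CCAAT matches in capitals, 5′ to 3′ on the gene's strand. The G1/S genes shown are Cdca7 at chr2:72476069-72476218 (plus strand) and Uhrf1 at chr17:56303187-56303336 (plus strand), whose levels ran apart from the rest, with Mcm6 at chr1:128359706-128359855 (minus strand) and Cdc6 at chr11:98908001-98908150 (plus strand) beside them.
Cdca7: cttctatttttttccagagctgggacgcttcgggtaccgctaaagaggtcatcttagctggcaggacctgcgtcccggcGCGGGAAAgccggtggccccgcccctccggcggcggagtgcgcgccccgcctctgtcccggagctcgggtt
Uhrf1: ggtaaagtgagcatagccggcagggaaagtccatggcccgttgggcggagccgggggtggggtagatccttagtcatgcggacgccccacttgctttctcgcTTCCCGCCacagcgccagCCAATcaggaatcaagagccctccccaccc
Mcm6: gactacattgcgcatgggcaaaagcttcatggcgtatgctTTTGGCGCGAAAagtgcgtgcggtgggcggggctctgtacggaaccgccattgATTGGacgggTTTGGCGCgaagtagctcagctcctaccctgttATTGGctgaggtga
Cdc6: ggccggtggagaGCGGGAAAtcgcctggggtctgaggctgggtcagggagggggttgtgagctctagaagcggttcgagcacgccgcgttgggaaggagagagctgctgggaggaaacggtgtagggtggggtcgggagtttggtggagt
Each of these windows holds an E2F-type match and no CHR-type match. The G2/M genes shown are Top2a at chr11:99024190-99024339 (minus strand), Cdk1 at chr10:69352913-69353062 (minus strand), Cdc20 at chr4:118437344-118437493 (minus strand) and Ube2c at chr2:164769779-164769928 (plus strand), each with at least 1 CHR-type match and several CCAAT matches.
Top2a: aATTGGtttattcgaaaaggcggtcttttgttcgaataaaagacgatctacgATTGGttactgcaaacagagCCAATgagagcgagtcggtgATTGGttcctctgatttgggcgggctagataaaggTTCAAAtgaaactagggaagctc
Cdk1: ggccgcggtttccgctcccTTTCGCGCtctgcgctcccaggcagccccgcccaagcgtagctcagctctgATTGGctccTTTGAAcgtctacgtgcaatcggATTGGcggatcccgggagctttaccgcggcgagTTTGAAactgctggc
Cdc20: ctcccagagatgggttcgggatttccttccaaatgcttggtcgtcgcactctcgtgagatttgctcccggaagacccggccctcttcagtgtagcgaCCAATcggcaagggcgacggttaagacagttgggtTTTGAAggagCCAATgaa
Ube2c: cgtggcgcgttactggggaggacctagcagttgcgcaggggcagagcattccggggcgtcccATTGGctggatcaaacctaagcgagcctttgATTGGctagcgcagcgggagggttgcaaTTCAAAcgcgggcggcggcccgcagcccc
Cdk1 holds an E2F-type match as well as CHR-type and CCAAT matches.

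T cell transcripts were not alike on all arrays. Of the 11 T cell markers measured, of 12 listed, Cd3e, a chain of the T cell receptor complex, lay between 12.06 and 12.59 and Thy1 between 11.86 and 12.31 (log2 intensity) over the 10 arrays. The first principal component over all genes held 60.9% of the variance. Cd2, a T cell adhesion receptor, was at 11.18 and 11.30 on arrays 4 and 5 of the WASP-intact group and at 11.52 on array 1 of the WASP-deficient group, against 6.10 to 6.90 on the other 7. Arrays with a Cd2 level of 9 or more are called Cd2-high below. Of the other markers, Cd28 and Zap70 were higher and Cd3d and Cd3g lower on all 3 Cd2-high arrays than on the other 7. Cd3d, another chain of the receptor complex, had levels of 5.26, 5.60 and 6.47 on these 3 arrays, in the order named for Cd2, against 8.96 to 10.08, so that 2 of the 3 lay under the level of the filter. Cd3g was at 6.29, 6.97 and 10.24 on them, against 11.45 to 12.23. These sets were made from a measured value and are not groups of the study, so differences between them are given with no test. Was itself fell in WASP-deficient lymphomas, as labelled (log2 difference -1.14, SE 0.08, limma adjusted p = 0.00088). Xist was at 11.52 to 11.90 on 4 WASP-intact arrays, at 4.40 on WASP-intact array 3 and at 4.50 to 5.58 on the WASP-deficient arrays. The Xist level thus ran with genotype except on WASP-intact array 3. Differences by genotype, by Xist level and by sex, if Xist follows it, cannot be told apart here. Array quartiles were close to each other except on WASP-deficient array 3. Its upper quartile was 402.7, against 433.6 to 451.2 on the other 9, and its lower quartile was 49.1, against 44.6 to 46.7.

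WASP-deficient and WASP-intact lymphomas did not differ detectably in any replication or mitosis gene. In limma over all genes, 0 of 57 members passed an adjusted p under 0.05 (background 0.00789% of genes, which is Was alone), and 0 of 57 had an unadjusted p under 0.05 (background 2.89%). Array weights and limma with trend and robust variances called 0 members as well. The groups of 5 overlapped for every member, where 0.245% of all genes had all WASP-deficient arrays below all WASP-intact arrays and 0.324% had them above. The log2 differences (WASP-deficient minus WASP-intact) lay between -0.46 and 0.22, with a median of -0.03 against -0.004 over all genes tested. The 95% confidence intervals lay within 0.5 log2 units of 0 for 41 of the 57 and reached 1 log2 unit for 1, Cdca7, so that the data leave room for moderate changes in single genes.

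By phase, the values leaned in opposite directions without passing the test. Of the G1/S members 20 were higher and 8 lower in WASP-deficient lymphomas (median 0.07), and of the G2/M members 4 were higher and 25 lower (median -0.06), where 51.1% of all genes were lower. The G1/S lean rested on single arrays. Without WASP-intact array 4, 12 were higher and 16 lower (median -0.01). Without WASP-deficient array 2, 14 were higher and 14 lower. With the Xist level as a covariate, 1 G1/S member was higher and 27 were lower (median -0.17). A score was formed per array as the mean of the members' log2 levels, each centred on its mean over the 10 arrays. The G1/S score was 0.03, 0.001, 0.23, -0.29 and -0.07 on WASP-intact arrays 1 to 5 and 0.15, 0.28, -0.02, -0.12 and -0.18 on WASP-deficient arrays 1 to 5. The groups overlapped throughout, at -0.02 ± 0.19 and 0.02 ± 0.19 (SD, n = 5 each). The difference of 0.04 was -0.025 without WASP-intact array 4 and -0.022 without WASP-deficient array 2.

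The G2/M score was 0.08, -0.002, 0.07, -0.05 and 0.12 on the WASP-intact arrays and 0.29, 0.26, -0.20, -0.14 and -0.43 on the WASP-deficient arrays, in the same order. The WASP-intact lymphomas were close together while the WASP-deficient ones reached both further up and further down. The means were 0.04 ± 0.07 and -0.04 ± 0.31 (SD, n = 5 each), a difference of -0.09 that is smaller than the spread among WASP-deficient mice. WASP-deficient array 5 alone set the count of lower G2/M members, which was 13 of 29 without it, with a score difference of 0.01. The summed markers of other cells overlapped between the genotypes in every list that had markers above the filter. The ranges for thymic epithelium and adipocytes were shifted. The 6 thymic epithelium markers above the filter, of 8, summed to 858 to 1886 in WASP-intact and 1758 to 2770 in WASP-deficient lymphomas (linear intensity, Foxn1 and Psmb11 under the filter). The 6 adipocyte markers above the filter, of 7, summed to 1491 to 1925 and 1089 to 1536 (Lep under the filter). By contrast, the 10 macrophage markers summed to 7092 to 9831 in WASP-intact and 6321 to 11452.5 in WASP-deficient lymphomas. The 6 endothelium markers above the filter, of 7, summed to 1992 to 2647 and 1819 to 2877 (Tek under the filter). Their part in the scores was not tested.

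**Figure D2:**
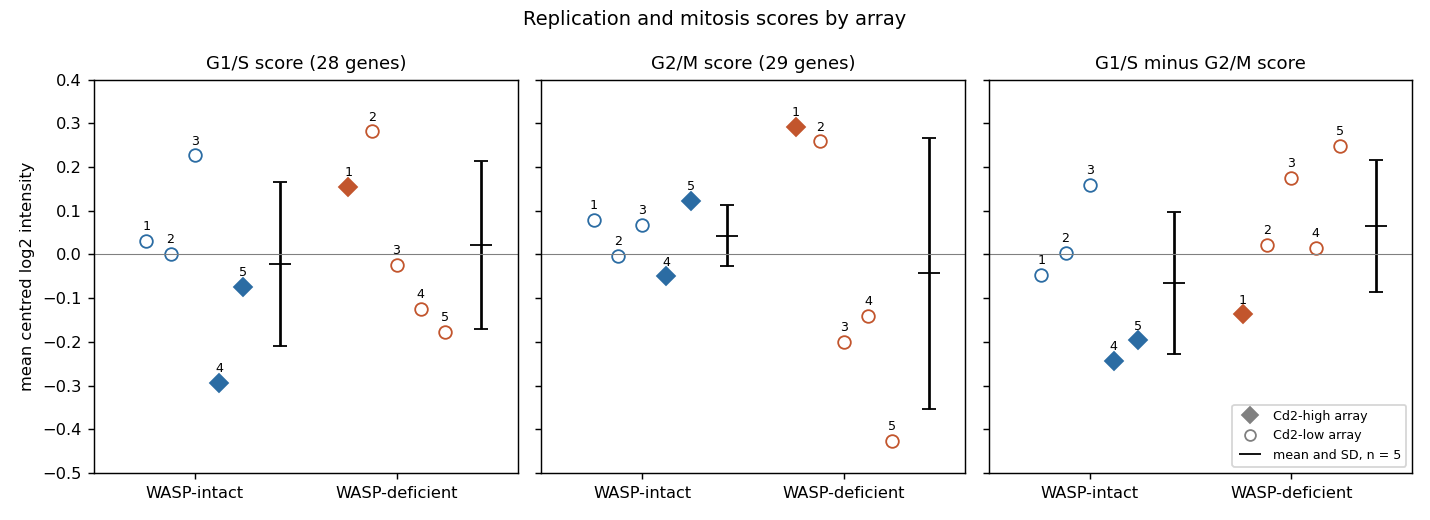
Mean centred log2 intensity of the 28 G1/S genes, of the 29 G2/M genes and the G1/S minus the G2/M score, 1 point per array with its replicate number. Bars are mean and SD over 5 arrays, and filled diamonds are the 3 Cd2-high arrays, which hold the 3 lowest values of the G1/S minus G2/M score (-0.24 to -0.14).

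The 6 members with the smallest p were Cenpf, Mki67, Mcm3, Top2a, Gins2 and Cdca7. Cenpf, a large protein of the outer kinetochore, was at 9.87, 9.76, 9.62, 9.69 and 9.88 on WASP-intact arrays 1 to 5 and at 9.84, 9.77, 9.18, 9.49 and 8.96 on WASP-deficient arrays 1 to 5. WASP-deficient arrays 3, 4 and 5 were below every WASP-intact array, and arrays 1 and 2 were not. The difference was -0.31 (SE 0.17, limma adjusted p = 0.999). Mki67, which encodes the proliferation antigen Ki-67, was at 11.87, 11.82, 11.93, 11.86 and 11.92 against 11.60, 11.41 and 11.42 on WASP-deficient arrays 3 to 5 and 11.96 and 11.99 on arrays 1 and 2. It thus showed the same split among WASP-deficient mice, with a difference of -0.20 (SE 0.13, limma adjusted p = 0.999). Top2a, the topoisomerase that untangles replicated chromosomes, was at 11.55, 11.40, 11.70, 11.48 and 11.66 in WASP-intact and at 11.72, 11.63, 11.26, 11.18 and 11.11 in WASP-deficient lymphomas. Here too WASP-deficient arrays 3 to 5 were the lowest of all 10.

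Mcm3, a subunit of the MCM helicase, was at 10.01, 10.07, 10.26, 9.82 and 9.99 in WASP-intact and at 10.33, 10.36, 10.32, 10.07 and 9.90 in WASP-deficient lymphomas. WASP-deficient arrays 1 to 3 were above all WASP-intact arrays and the others were among them (difference 0.17, SE 0.12, limma adjusted p = 0.999). Gins2, a subunit of the GINS complex that joins MCM and Cdc45 in the active helicase, was at 9.09, 9.08, 9.31, 8.47 and 8.71 in WASP-intact and at 9.05, 9.26, 9.35, 9.07 and 8.96 in WASP-deficient lymphomas. Its 2 lowest values were those of the Cd2-high WASP-intact arrays 4 and 5. At an unadjusted p under 0.05 (limma), Cenpf and Mki67 were reached when WASP-deficient array 1 or 2 was left out and Mcm3 when array 5 was. Of all 12670 genes, 888 were reached without array 1, 395 without array 2 and 371 without array 5. After adjustment 0 members passed in any of these.

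The members' roles did not separate the genotypes either. Of the 6 MCM helicase subunits, which unwind DNA at the fork, 5 had higher values, from Mcm7 at 0.03 to Mcm2 at 0.22, and Mcm4 was at -0.01. All 5 genes of origin licensing and helicase activation had higher values, among them the loaders Cdc6 (0.16) and Cdt1 (0.20) and the helicase cofactor Cdc45 (0.06). Among fork genes, Pcna, the sliding clamp, was at -0.05, Pola1, the priming polymerase, at -0.14 and Fen1, the flap nuclease of lagging strand synthesis, at 0.08. Of the nucleotide supply genes, the ribonucleotide reductase subunits were at 0.02 for Rrm1 and 0.05 for Rrm2, and thymidylate synthase Tyms was at -0.05. None of these passed.

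In mitosis, all 7 genes of spindle motors and assembly had lower values, from Kif2c, a microtubule depolymerase, at -0.05 to Kif11, the motor that pushes spindle poles apart, at -0.19. The mitotic kinases were close to 0: Cdk1 was at -0.01, Plk1 at -0.0004, Aurka at -0.08 and Aurkb at -0.05. The checkpoint and kinetochore genes lay between Cenpf (-0.31) and Bub1b (0.04), with the checkpoint kinases Bub1 at -0.10 and Ttk at -0.12 and the microtubule anchor Ndc80 at -0.22. The G2/M members with higher values were Bub1b, Birc5 (survivin, 0.06), Cdca8 (borealin, 0.07) and Cdca3 (0.06), and Birc5 and Cdca8 encode partners of Aurora B in the chromosomal passenger complex. The cytokinesis genes Ect2, Anln and Prc1 were at -0.05, -0.03 and -0.05.

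Among 137 tested genes of the same pathways outside the 58, from lists of 139, 0 passed (background 0.00789% of all genes). An unadjusted p under 0.05 (limma) was reached by 0 of them (background 2.89%). For the directions that follow, 51.1% of all genes had lower values. Of 22 further fork genes 18 had higher values (median 0.05), with Rfc3, a clamp loader subunit, at 0.19, Pold3 at 0.14 and Rpa2, a subunit of the single-strand binding complex, at 0.14. Of 14 condensin and cohesin genes 11 had lower values (median -0.09), with the cohesin subunits Stag2 at -0.30 and Stag1 at -0.18. Of 21 further motor and cytokinesis genes 16 had lower values (median -0.11), although Pttg1, which encodes securin, was at 0.22 and Racgap1 at 0.19. Of 16 origin genes 9 were lower, with Orc4 at -0.19 and Orc6 at 0.24. The E2F and MuvB regulators had 13 higher and 6 lower values (median 0.05), with Skp2 at 0.18, Mybl1 at -0.32 and Rbl1 at -0.14.

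The members' highest and lowest values gathered on a few arrays. WASP-deficient array 2 held the highest value of 23 members (40.4%, against 9.93% of all genes) and WASP-deficient array 1 that of 21 (36.8%, against 9.99%). WASP-deficient array 5 held the lowest of 26 members (45.6%, against 8.15%) and WASP-intact array 4 that of 19 (33.3%, against 15.3%). WASP-intact arrays 1 and 2 held neither extreme for any member. The SD over the 10 arrays had a median of 0.25 for the members and of 0.20 for all genes, and lay between 0.13 (Mcm7) and 0.68 (Cdca7). The T cell marker list (11 of 12 genes measured, none under the filter by its mean) had scores of -0.34, -0.28 and -0.27 on WASP-deficient arrays 3, 4 and 5, the 3 lowest, and 0.61 on WASP-deficient array 1, the highest. The list holds Cd2 and Cd28, which ran with the Cd2 sets, and the order changed without both: these 4 arrays were then at -0.10, 0.02, 0.13 and 0.04, and the lowest were WASP-intact arrays 4 and 5 at -0.83 and -0.69. The summed linear intensity of all 11 was 14166 to 21515 in WASP-deficient and 16939 to 18308 in WASP-intact lymphomas. The part of T cell content in the G2/M levels was not tested.

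**Figure D3:**
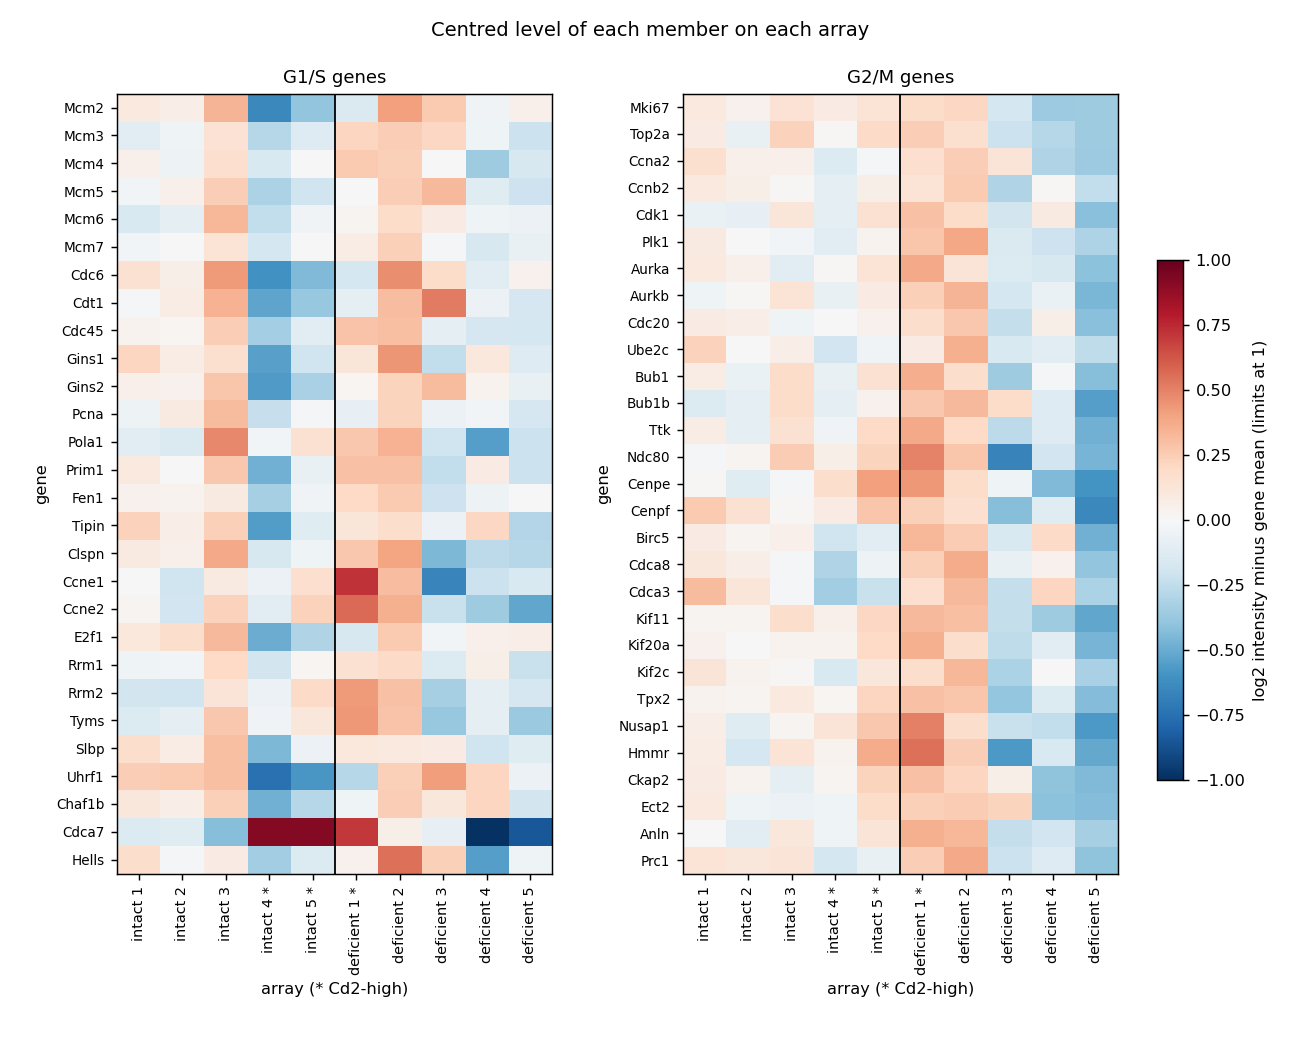
Log2 intensity minus the gene's mean over 10 arrays, for the 28 G1/S and 29 G2/M members (rows) on each array (columns), with the 3 Cd2-high arrays marked by an asterisk and colours ending at 1 log2 unit. WASP-deficient arrays 1 and 2 are high and WASP-deficient array 5 is low over most of the G2/M rows. Cdca7 is high on WASP-intact array 4, where most other G1/S rows are low. It is also high on WASP-intact array 5, where the other G1/S rows are mixed.

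On the Cd2-high arrays the balance between the phases was shifted: G1/S genes were mostly lower and G2/M genes mostly higher than on the Cd2-low arrays. The Cd2-high minus Cd2-low difference was below 0 for 20 of 28 G1/S members (median -0.12) and above 0 for 25 of 29 G2/M members (median 0.19), where 47.5% of all genes were above 0 (median -0.02). With each array centred on its median the counts were 20 of 28 and 23 of 29. The G1/S score was -0.29, -0.07 and 0.15 on the Cd2-high arrays and -0.18 to 0.28 (median 0.001) on the other 7, so the sets overlapped. The difference in the G1/S score, -0.10, was 0.009 without WASP-intact array 4 and -0.22 without WASP-deficient array 1.

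The G2/M score was -0.05, 0.12 and 0.29 on the Cd2-high arrays and -0.43 to 0.26 (median -0.002) on the others, which overlapped too. The difference of 0.17 was 0.26 without WASP-intact array 4 and 0.09 without WASP-deficient array 1. The G1/S score minus the G2/M score was -0.24, -0.20 and -0.14 on the Cd2-high arrays. It lay between -0.05 and 0.25 on the 7 Cd2-low arrays, with no overlap. Single genes were often separated by these sets too, 14.4% of all genes with the Cd2-high arrays above and 16.1% with them below. The 7 fibroblast markers above the filter, of 8, summed to 4847 to 8174 on the Cd2-high arrays and to 2360 to 4229 on the Cd2-low arrays (linear intensity, Lum under the filter). The 7 muscle markers above the filter, of 8, did not separate these sets (Myh6 under the filter). They summed to 6326 on WASP-intact array 4, the array of the lowest G1/S score. The lowest Cd2-high sum, 820, was within the Cd2-low range of 754 to 885. The part of these cells in the scores was not tested.

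Few single members were set apart by Cd2. Cdca7 was the member that was higher on all 3 Cd2-high arrays than on all others, 1 of 57 members (1.75%) against 14.4% of all genes. Uhrf1, Cdc6, Mcm2 and E2f1 were lower on all 3 than on all others, 4 of 57 members (7.02%) against 16.1% of all genes. A difference of 0.5 log2 units or more was seen for 1 member and of -0.5 or less for 3, where 10.4% and 10.7% of all genes reached these sizes. None of the 29 G2/M members was separated in either direction.

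**Figure D4:**
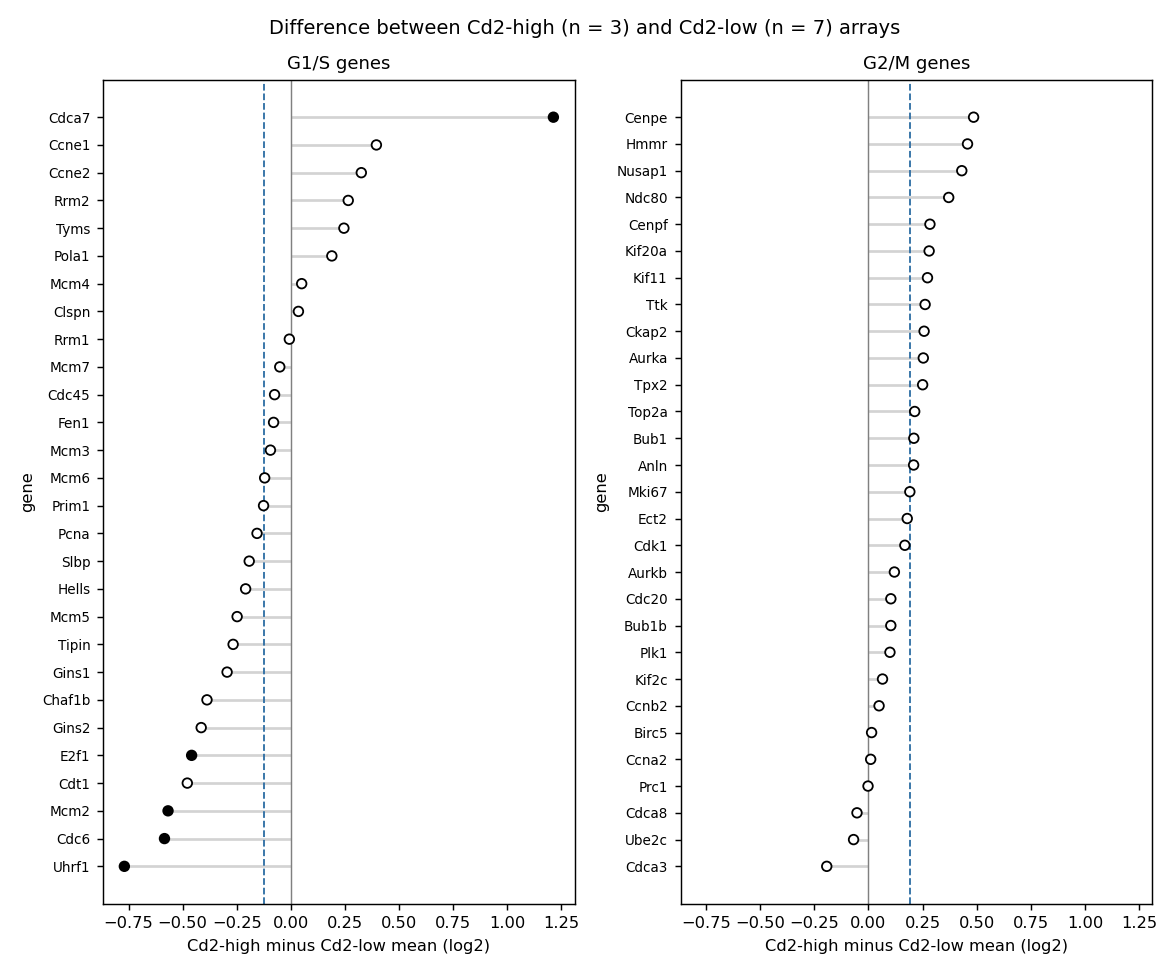
Mean log2 level on the 3 Cd2-high arrays minus that on the 7 Cd2-low arrays for each member, sorted within G1/S (left) and G2/M (right). Filled points are the 5 members whose sets of arrays did not overlap, and dashed lines are the medians of the 28 and 29 genes, -0.12 and 0.19.

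Uhrf1, which guides the maintenance DNA methyltransferase to newly replicated DNA, was at 9.83, 9.998 and 10.30 on the Cd2-high arrays (WASP-intact 4 and 5, WASP-deficient 1). It was at 10.83, 10.84 and 10.88 on WASP-intact arrays 1 to 3 and at 10.82, 10.996, 10.79 and 10.52 on WASP-deficient arrays 2 to 5. The difference of -0.77 is 0.587 of the Cd2-low level. Cdc6, which helps load the MCM ring at origins, was at 7.88, 8.05 and 8.31 on the Cd2-high arrays against 8.63, 8.55 and 8.91 in WASP-intact and 8.95, 8.67, 8.38 and 8.53 in WASP-deficient Cd2-low lymphomas (difference -0.58). Mcm2 was at 10.27, 10.52 and 10.77 against 11.02, 10.99 and 11.26 in WASP-intact and 11.33, 11.18, 10.89 and 10.97 in WASP-deficient Cd2-low lymphomas (difference -0.57). Uhrf1, Cdc6 and Mcm2 thus had the same lowest array, WASP-intact array 4. E2f1, the transcription factor that activates many G1/S genes, was at 8.61, 8.81 and 8.95 on the Cd2-high arrays, with WASP-deficient array 3 the next at 9.08 (difference -0.46).

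The G2/M members with the largest differences were Cenpe, a kinetochore motor that aligns chromosomes, and Hmmr, a spindle assembly protein. Cenpe was at 9.69, 9.92 and 9.95 on the Cd2-high arrays, at 9.53, 9.39 and 9.50 on WASP-intact arrays 1 to 3 and at 9.70, 9.47, 9.07 and 8.92 on WASP-deficient arrays 2 to 5. Only WASP-deficient array 2 reached into the Cd2-high range, and the difference was 0.49. Hmmr was at 8.33, 8.67 and 8.85 on the Cd2-high arrays, at 8.37, 8.12 and 8.43 on WASP-intact arrays 1 to 3 and at 8.54, 7.72, 8.14 and 7.79 on WASP-deficient arrays 2 to 5, which overlapped (difference 0.46). Nusap1, a microtubule bundler, followed at 0.43 and Ndc80 at 0.37.

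Within the G1/S group, genes of the same step could differ in sign. The cyclin E genes Ccne1 and Ccne2, whose products start S phase with Cdk2, were higher on average on the Cd2-high arrays (0.40 and 0.33). Both overlapped with the Cd2-low arrays and were highest on WASP-deficient array 1. E2f1 was lower, with no overlap. The ribonucleotide reductase subunit Rrm2 and thymidylate synthase Tyms, which overlapped too, were at 0.27 and 0.25, and the partner subunit Rrm1 was at -0.01. Among MCM subunits the difference ran from -0.57 for Mcm2 to 0.05 for Mcm4. Among histone and chromatin genes, the chromatin assembly factor Chaf1b was at -0.39, the histone mRNA binding protein Slbp at -0.19 and the remodeller Hells at -0.21.

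Cdca7 left the group most clearly. A member was said to leave when its centred level differed by over 0.5 log2 units on any array from the mean of the other members of its phase. This held for 4 of 57, the G1/S genes Cdca7, Uhrf1, Ccne1 and Cdt1, and for no G2/M gene. Just inside the limit were Ndc80 (0.48), Pola1 and Hells (0.44 each), and just outside was Uhrf1 (0.53).

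Cdca7, a zinc finger protein that recruits the Hells remodeller to DNA, was at 12.82, 12.82 and 12.61 on the Cd2-high arrays, at 11.76, 11.79 and 11.47 on WASP-intact arrays 1 to 3 and at 11.96, 11.82, 10.92 and 11.05 on WASP-deficient arrays 2 to 5. The Cd2-high arrays were thus above all others, by a mean of 1.21 or 2.32-fold. It exceeded the other G1/S members by 1.26 on WASP-intact array 4, 1.03 on array 5 and 0.58 on WASP-deficient array 1, and differed from them by -0.68 on WASP-intact array 3, -0.89 on WASP-deficient array 4 and -0.70 on array 5. Its partner Hells was at 9.004, 9.22 and 9.40 on the Cd2-high arrays and at 8.81 to 9.90 on the others, which overlapped. By genotype Cdca7 differed by -0.46 (SE 0.38, 95% interval -1.30 to 0.38, limma adjusted p = 0.999).

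Uhrf1 was past the limit on WASP-intact array 5 alone, at -0.53 from the other members. It was at -0.47 on WASP-intact array 4, -0.45 on WASP-deficient array 1 and 0.46 on WASP-deficient array 3. Ccne1 was at 10.40 on WASP-deficient array 1 and 9.02 on array 3, its extremes, against 9.67, 9.48, 9.77, 9.62 and 9.85 in WASP-intact and 9.99, 9.47 and 9.53 in the other WASP-deficient lymphomas. It differed from the other members by 0.59 and -0.66 on those arrays. Cdt1, the partner of Cdc6 in MCM loading, left on WASP-deficient array 3 alone, where it was at 10.95, 0.56 above the other members, against 10.42, 10.51, 10.78, 9.91 and 10.06 in WASP-intact and 10.33, 10.74, 10.37 and 10.26 in the other WASP-deficient lymphomas. Ccne1 and Cdt1 thus parted in opposite directions on WASP-deficient array 3, the array with the low upper quartile of intensity, whose part in this was not tested.

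**Figure D5:**
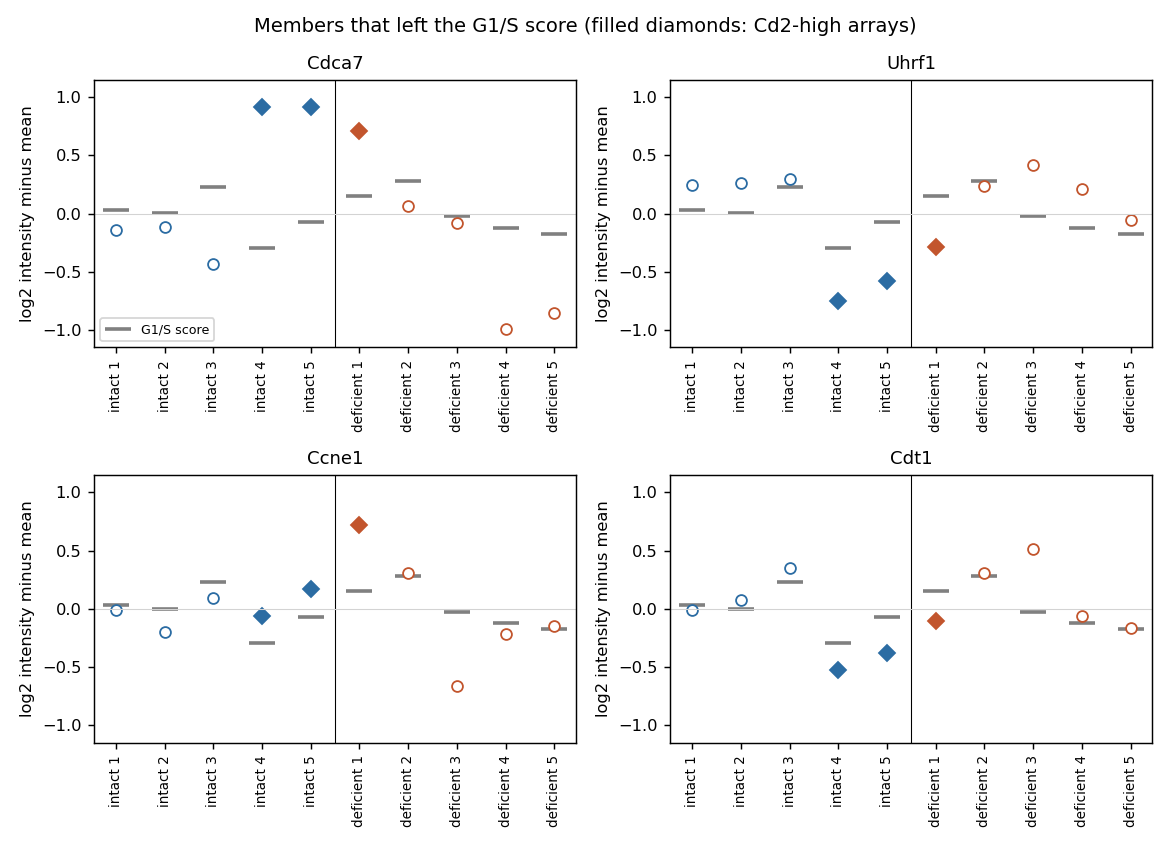
Centred log2 level of the 4 members that left the G1/S group on each array (points, blue WASP-intact, orange WASP-deficient, filled diamonds Cd2-high) with the G1/S score of that array as a grey dash. Cdca7 lies 1.26 and 1.03 above the other members on WASP-intact arrays 4 and 5, and Uhrf1 lies below them there.

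Of the other pathway genes, 14 of 137 were above on all 3 Cd2-high arrays (10.2%) and 6 of 137 below (4.38%), shares that do not exceed those of all genes (14.4% and 16.1%). Mybl1, a relative of B-Myb, was at 8.79 to 8.96 against 7.54 to 8.21 (difference 0.99), Asf1a, a histone chaperone, at 9.57 to 9.87 against 8.49 to 9.02 (0.95) and E2f7, a repressive E2F, at 8.18 to 8.89 against 7.36 to 7.83 (0.93). Dbf4, the activator of the origin-firing kinase Cdc7, was at 9.78 to 10.07 against 8.85 to 9.56 (0.61). Among those lower on all 3 were Shmt1, an enzyme of folate metabolism (8.53 to 8.92 against 9.18 to 9.74, difference -0.65), Pttg1 (-0.59) and the fork protection gene Timeless (-0.45).

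Genotype was also examined within the Cd2 sets. Among the 7 Cd2-low arrays, 3 WASP-intact and 4 WASP-deficient, all 29 G2/M members and 23 of 28 G1/S members had lower values in WASP-deficient lymphomas (median over 57 members -0.13), where 57.0% of all genes were lower (median -0.02). The members with higher values were Mcm2, Mcm3, Mcm6, Cdt1 and Rrm2. None of the 57 passed, and 0 had an unadjusted p under 0.05 (limma). Of all 12670 genes, 2 passed and 404 had an unadjusted p under 0.05 in the same fit (limma). The G2/M score was 0.08, -0.002 and 0.07 in WASP-intact lymphomas and 0.26, -0.20, -0.14 and -0.43 in WASP-deficient ones, so that 1 WASP-deficient lymphoma lay above and 3 below the WASP-intact ones. The G1/S difference changed sign from all arrays (0.04) to the Cd2-low arrays (-0.10).

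Among the Cd2-high arrays, the single WASP-deficient lymphoma lay above both WASP-intact ones for 54 of 57 members (94.7%), where the same held for 39.2% of all genes. The exceptions were Pcna and Cenpf, which lay between them, and Cdca7, which lay below both (1 of 57, where 36.4% of all genes did). With 1 array on one side this has no replicate check. Most members thus had a lower mean without WASP in the Cd2-low set, where WASP-deficient array 2 nevertheless had the highest G2/M score. In the Cd2-high set the higher values were those of 1 lymphoma, and the members measured on it are not replicates. The difference between the sets was not tested.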

How the data were processed

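RNA of 10 lymphomas was measured on 1 array each, and groups and replicate numbers were taken from the sample titles. The deposited intensity values were made by the authors with RMA, per the submitters' processing notes, and are on a linear scale (3.309 to 15587.9). RMA evens out array-wide differences, so total RNA cannot be read from them. The sources used here give no version or annotation build for it. Values were log2-transformed. Of 34760 probe sets 21640 carried 1 gene symbol in the platform annotation, 1321 several and 11799 none. Gene IDs of 21553 matched RefSeq genes of GRCm38.p6, used for names. Probe sets with a mean under the 40th percentile were left out, and the brightest per gene was kept (12670 genes). Genotypes were compared with limma 3.58.1 (lmFit, eBayes, no covariate) in R 4.3.3, with Benjamini-Hochberg adjustment over all genes at 0.05, a step tested on simulated data. No test was made on scores or Cd2 sets. Cell markers and pathway lists were written from general knowledge. The members and lists were chosen with earlier results of these data known. All members could be named, and array by array values are given for the 6 of smallest p, those that leave their group and the 3 largest Cd2 differences each way, besides E2f1. Of other pathway genes those of smallest p or largest Cd2 difference per list were named. Figures were drawn with matplotlib 3.10.9. The number of arrays limits the precision, and 0 columns were left unused. Alternatives covered the arrays used, covariates, filter, probe set choice, scaling, variance model and replicate block.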

Additional observations from a re-analysis of the deposited data

Results flagged for a closer look

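Kif20a, a kinesin of the late spindle, was at 10.32 on WASP-intact array 5, away from the other 4 WASP-intact arrays at 10.11 to 10.16. The gap was large against the range of the group by Dixon's criterion. It was the only one of 118 groups of 5 arrays, 57 members and 2 scores in each genotype, to be marked, where chance alone marks about 1 group in 20.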

How the results depend on the processing

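No member passed under any of the 20 alternatives to the limma fit. The count of all genes past the threshold, 1, was 0 with the replicate number as a block, 0 with the Xist level as a covariate, 2 without the Cd2-high arrays and 1 to 4 when single arrays were left out (2 without WASP-deficient array 1, 4 without WASP-intact array 3). Was itself was at -1.14 (limma adjusted p = 0.136) with the block and -1.06 (limma adjusted p = 0.376) with Xist. The replicate block changed no other call named here. Correlations of same-numbered arrays over all genes ran from -0.714 to 0.366. They cannot decide whether the numbers pair the mice, because the Cd2-high arrays carry different numbers in the 2 genotypes. Of 57 members 33 had lower values, 52 without the Cd2-high arrays, 52 with Xist, and 17 (without WASP-deficient array 5) to 42 (without WASP-deficient array 2 or WASP-intact array 4) with single arrays left out. With Xist, which is high in 4 of 5 WASP-intact and in no WASP-deficient lymphomas, the G1/S score difference of 0.04 was -0.20. It was 0.06 without Cdca7 and 0.05 without the 4 leaving members, choices made after seeing the data. Members leaving their group numbered 4, but 10 at a limit of 0.4 and 1, Cdca7, at 0.7. Uncalled differences also changed sign: with Xist for Ccne1 (-0.16), Cdc6 (-0.29), Cdca7 (0.13), Cdt1 (-0.17), Gins2 (-0.13), Mcm2 (-0.18), Mcm3 (-0.044) and Uhrf1 (-0.14), without the Cd2-high arrays for Ccne1 (-0.14), Cdc6 (-0.066), Gins2 (-0.0027) and Uhrf1 (-0.067), with array weights for Uhrf1 (-0.059), and for Ccne1 (0.003) with single arrays left out, from -0.18 (without WASP-deficient array 1) to 0.17 (without WASP-deficient array 3). The cause was not tested. Pcna, Slbp and Top2a had 2 probe sets each, and Pcna's differed in sign by Cd2 (-0.16 and 0.02).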
